A study of Mus musculus with 3 samples.

Results

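The endoplasmic reticulum (ER) chaperones described here are 10 mouse genes, Hspa5, Hsp90b1, Pdia4, Pdia6, Calr, Dnajb9, Sdf2l1, Creld2, Manf and Hyou1, chosen by symbol among the 32285 genes of the files, and each symbol matched 1 gene. Cells of dissociated mouse hypothalamus were profiled with droplet capture and 3′ RNA sequencing, which counts unique molecular identifiers (UMIs), 1 for each captured RNA molecule. All mice were 8-week-old males, and no strain, genotype or time of exposure is given in the sources used here. HS is the library from heat-exposed mice, QS the library from mice in recovery after the exposure, and PF the control library, from mice with intake matched to account for eating during the exposure. Each group is 1 library, so there is no replicate check: intervals cover counting error only, no p-value is given, and "higher" or "lower" describes libraries.

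Proteins that enter the secretory pathway fold in the ER lumen with the help of these chaperones. BiP, the product of Hspa5, holds unfolded chains and keeps the stress sensors IRE1, PERK and ATF6 silent. When unfolded proteins build up, BiP leaves the sensors, and the transcription factors XBP1 and ATF6 raise chaperone genes in what is called the unfolded protein response. Demand for folding is high in cells that secrete much protein or build much membrane, such as collagen-secreting fibroblasts and myelin-forming oligodendrocytes.

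A regulatory sequence that many of these genes share is the ER stress response element (ERSE), where NF-Y binds the CCAAT part and ATF6 or XBP1 the CCACG part. The motif searched was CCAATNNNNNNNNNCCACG, in which N is any base, on both strands, from 250 bases before to 50 bases after each gene's start in the RefSeq promoter table (build GRCm38.p6). Of the 10 genes, 8 had a promoter in that table, and 5 of these 8 held the motif, against 39 of all 32851 promoters (0.119%). The stretches below are shown because they are the matches in these 5 genes. They run along the gene's strand, with the fixed letters of the motif in capitals. Where CGTGG comes before ATTGG, the motif lies on the opposite strand.
Hspa5 (chr2:34772020-34772048, plus strand): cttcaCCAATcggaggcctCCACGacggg
Hsp90b1, first match (chr10:86705633-86705661, minus strand): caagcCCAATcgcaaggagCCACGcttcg
Hsp90b1, second match (chr10:86705528-86705556, minus strand): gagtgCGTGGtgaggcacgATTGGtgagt
Pdia6 (chr12:17266486-17266514, plus strand): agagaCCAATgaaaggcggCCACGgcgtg
Calr (chr8:84847070-84847098, minus strand): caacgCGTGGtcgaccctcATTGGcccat
Creld2 (chr15:88819515-88819543, plus strand): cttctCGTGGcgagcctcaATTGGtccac

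The Hspa5 match lay nearest to its start, 65 to 47 bases before it, though the GENCODE gene begins further upstream and includes it. The Pdia6 match began 98 bases before the start, that of Creld2 126 bases and that of Calr 162 bases before it. Hsp90b1 was the member with a pair of matches, which began 212 and 107 bases before the start. Pdia4, Dnajb9 and Sdf2l1 had a promoter in the table without these letters, and Manf and Hyou1 were not matched. None of the 8 promoters held ERSE-II, ATTGGNCCACG (0.0365% of all promoters), the UPRE letters TGACGTGG (0.676%), the CRE TGACGTCA (1.79%), a heat shock element, GAANNTTCNNGAA (0.603%), or a glucocorticoid response element, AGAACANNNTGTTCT (0.00913%). A match is a description of the letters and not a site in use.

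**Figure D1:**
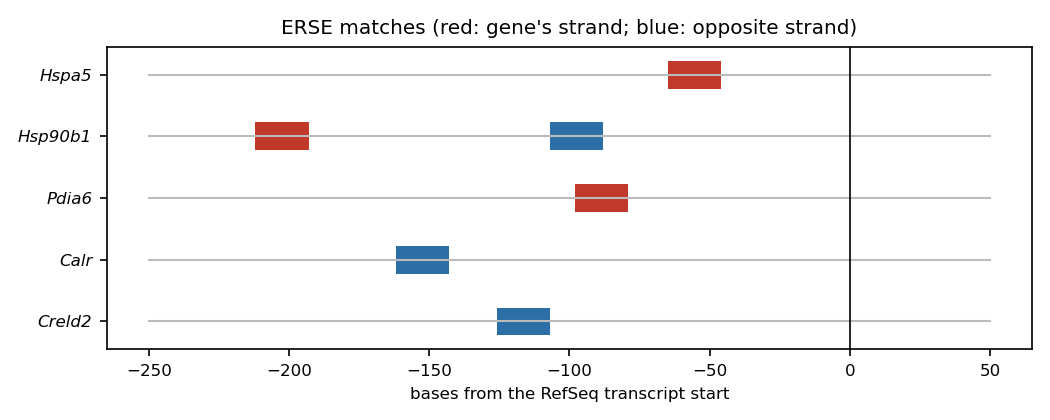
Positions of the ERSE matches in the promoters of 5 chaperone genes; the horizontal axis is the distance in bases from the RefSeq transcript start, from 250 before to 50 after, and each bar is 1 match of the motif. The match of Hspa5 is the nearest to the start, Hsp90b1 has 2, and all lie before the start.

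All 10 genes are protein-coding, and their positions are given in the GENCODE M21 annotation of GRCm38. Hspa5 lies on chromosome 2 at 34771970 to 34777547 (plus strand), Hsp90b1 on chromosome 10 at 86690209 to 86705509 (minus strand) and Calr on chromosome 8 at 84841850 to 84846934 (minus strand). Pdia4 lies on chromosome 6 at 47796141 to 47813430 (minus strand) and Pdia6 on chromosome 12 at 17266545 to 17284770 (plus strand). Dnajb9 is also on chromosome 12, at 44205559 to 44210326 (minus strand), Sdf2l1 on chromosome 16 at 17130138 to 17132383 (minus strand) and Creld2 on chromosome 15 at 88819646 to 88826683 (plus strand). Manf (106838312 to 106891979, minus strand) and Hyou1 (44379490 to 44392369, plus strand) are both on chromosome 9. In that annotation the whole span of Hsp90b1 overlaps Gm15344 and that of Manf overlaps Rbm15b on the same strand. Counts of Hsp90b1 and Manf may therefore be less certain than those of the others. On the other strand Pdia6 overlaps Atp6v1c2, and Manf overlaps Dcaf1, Gm37612 and 4930524O07Rik. The part of these overlaps, on either strand, in the counts was not tested.

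The libraries held 12510 (HS), 11720 (QS) and 12836 (PF) barcodes, and 11630, 10782 and 11858 cells were kept, with median UMI counts per cell between 6143 and 6298. Barcodes shared between libraries numbered 37 to 51 per pair of libraries. Clusters were named from marker genes, each called "-like" since RNA is their one source. Of 47 clusters, 10 stayed unnamed, with 7.44% of the cells. UMIs were summed per library and class and are given as CPM, counts per 1000000 UMIs of that sum, as levels in 12 classes that had 50 cells or more from each library and as ratios in 7 that had 200 or more. The 7, with 28705 of the 34270 cells, are vascular smooth muscle-like, pericyte-like, oligodendrocyte-like, ependymal-like, astrocyte-like, microglia-like and endothelial-like cells. Neuron-like cells, which a hypothalamus should hold in number, came to 38 in HS, 58 in QS and 47 in PF and are not described.

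RNA of all 10 chaperones was counted in every one of the 12 classes, and the levels differed between classes. Hspa5, whose product BiP is the HSP70 chaperone of the ER lumen, was highest in border-associated macrophage-like cells, with 3155 CPM in HS, 2564 in QS and 2177 in PF. Microglia-like cells came next, with 2498 CPM in HS, 2090 in QS and 1972 in PF. The ranges over the 3 libraries of these 2 macrophage classes overlapped, although the border-associated cells were higher within each library, and both classes stood above all others.

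Fibroblast-like cells had 1719 CPM of Hspa5 in HS, 1103 in QS and 1070 in PF, and monocyte or dendritic cell-like cells 1106, 1123 and 1097. Endothelial-like cells had 941, 843 and 845 CPM in HS, QS and PF, pericyte-like cells 979, 874 and 741, and T or NK cell-like cells 829, 771 and 745. The middle of the order was thus crowded, with neighbouring classes whose libraries overlapped, except that monocyte or dendritic cell-like cells stood above endothelial-like cells in all 3 libraries. Ependymal-like cells had 723 CPM in HS, 714 in QS and 616 in PF, and tanycyte-like cells 701, 663 and 632. Vascular smooth muscle-like cells had 600, 603 and 607 CPM. Ependymal-like and tanycyte-like cells overlapped, below the T or NK cell-like cells and above the smooth muscle-like cells. Oligodendrocyte-like cells (395, 359 and 314 CPM) and astrocyte-like cells (267, 203 and 234 CPM) were lowest and overlapped with no other class. The mean over the libraries was 11.2 times higher in the highest class than in the lowest, 2632 against 235 CPM.

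Among the partners of BiP, Dnajb9 encodes ERdj4, a J-domain protein that hands substrates to BiP and brings BiP back to the sensor IRE1. It was highest in border-associated macrophage-like cells (543 CPM in HS, 639 in QS, 490 in PF) and next in endothelial-like cells (417, 397 and 410 CPM). Its lowest level was in ependymal-like cells, 66.8 CPM in HS, 75.5 in QS and 81.8 in PF. The class at the bottom for Dnajb9 was the class at the top for Pdia4 and Creld2.

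Pdia4 and Pdia6 encode protein disulfide isomerases, and Creld2 an ER protein that ER stress induces and that can be secreted. Pdia4 reached 189 CPM in HS, 202 in QS and 168 in PF in ependymal-like cells, above the 78.4, 96.7 and 76.6 CPM of tanycyte-like cells, the next class. Creld2 had 96.9, 107 and 95.8 CPM in HS, QS and PF in ependymal-like cells, and 60, 72.9 and 61.0 CPM in tanycyte-like cells. For both genes the ependymal-like cells, which line the ventricles, stood above every other class in all 3 libraries, while the tanycyte-like cells overlapped with fibroblast-like cells. Pdia6 was highest in fibroblast-like cells (301 CPM in HS, 313 in QS, 243 in PF), where tanycyte-like cells overlapped with them (232, 217 and 263 CPM), and lowest in vascular smooth muscle-like cells (69.0, 69.6 and 67.6 CPM). The fibroblast-like cells of QS came mostly from 1 of that class's 2 clusters (57 of 71 cells), those of HS and PF from the other.

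Sdf2l1, whose product works with the J-domain protein ERdj3, had the widest range, 18.6 times between the highest and the lowest class. Monocyte or dendritic cell-like cells had 143 CPM in HS, 121 in QS and 99.7 in PF, against 7.46, 6.10 and 6.01 CPM in vascular smooth muscle-like cells. Microglia-like cells, at 125, 100 and 110 CPM, could not be separated from the monocyte or dendritic cell-like cells. Manf, a small secreted protein that binds BiP and is known as a neurotrophic factor, was highest in fibroblast-like cells (400, 316 and 288 CPM in HS, QS and PF), where tanycyte-like cells overlapped with them (335, 304 and 341 CPM).

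The HSP90 of the ER lumen, Hsp90b1 (GRP94), the lectin chaperone Calr (calreticulin) and the nucleotide exchange factor Hyou1 (GRP170) varied least, by 2.66, 2.51 and 2.61 times between classes. Hsp90b1 had 647, 611 and 563 CPM in HS, QS and PF in ependymal-like cells, close to the 620, 668 and 525 CPM of fibroblast-like cells, and 240, 217 and 228 CPM in vascular smooth muscle-like cells. Calr had 455, 419 and 411 CPM in microglia-like cells and 189, 163 and 161 CPM in astrocyte-like cells. Hyou1 stayed between 8.37 and 37.1 CPM over all 36 library values. Over the 12 class means, Pearson's r of log2(CPM + 1) was above 0 in 43 of the 45 pairs of members, with a median of 0.60. This describes points that share libraries and depth, and the share among pairs of other genes was not computed.

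**Figure D2:**
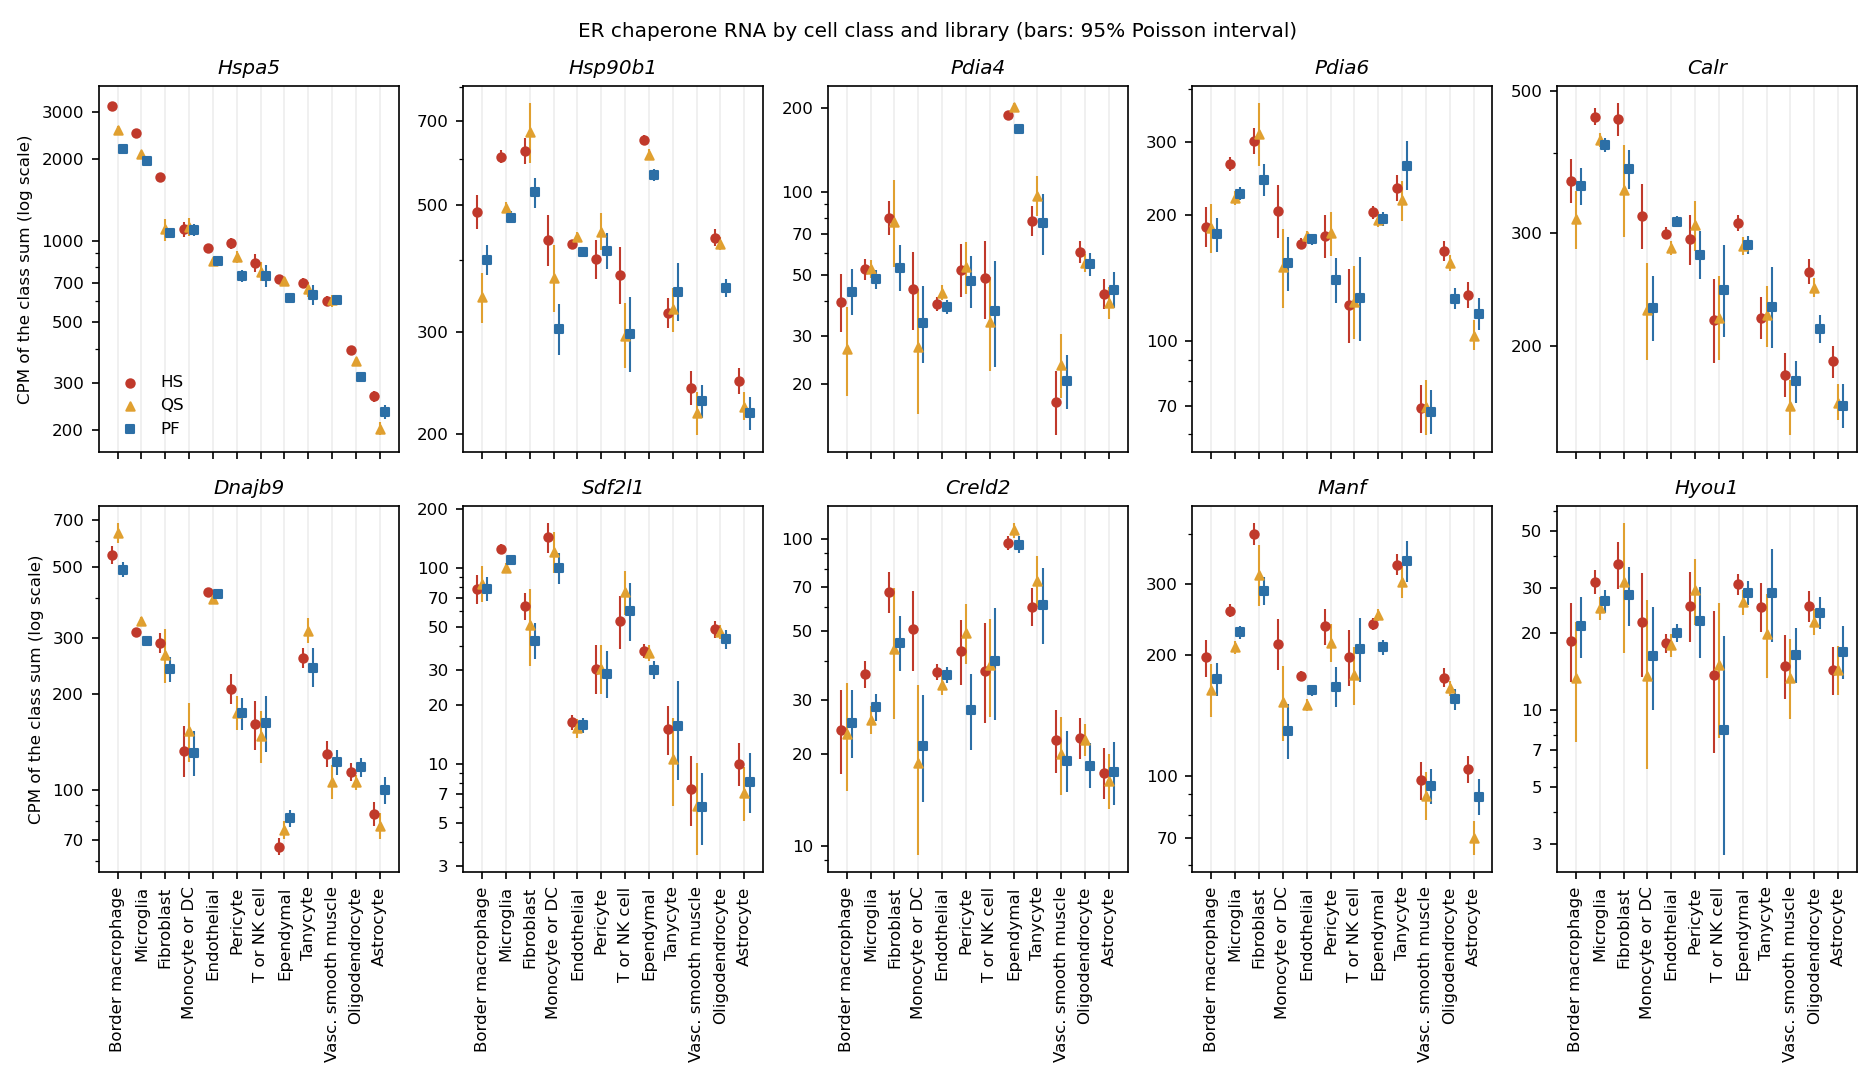
Level of each of the 10 genes in 12 cell classes, in CPM of the class sum on a log axis; red circles are HS, yellow triangles QS and blue squares PF, and bars are exact 95% Poisson intervals. Hspa5 spans 11.2 times from border-associated macrophage-like to astrocyte-like cells, while Pdia4 and Creld2 are highest in ependymal-like cells.

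Heat exposure is a known challenge to protein folding, and the comparison of HS with PF asks whether ER chaperone RNA was higher in cells of the exposed mice. Most of the chaperones were slightly higher in HS, by less than 1.5 times in all but 1 pair of a gene and a class. Of the 70 pairs, 69 had at least 30 UMIs in the library with more (Sdf2l1 in vascular smooth muscle-like cells had 25, 15 and 24 in HS, QS and PF), and 56 of these 69 had a ratio above 1. Among all pairs measured alike, 47.7% were above 1. The median log2 ratio was 0.15 over the member pairs and -0.01 over all genes and classes measured alike. A pair was called where the ratio reached a set fold and its exact conditional binomial 95% interval left out 1.

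At least 1.2 times higher in HS than in PF were 12 of the 69 pairs, 17.4%, where 5.34% of all pairs of a gene and a class were called. At least 1.2 times lower was 1 pair, 1.45%, where 6.28% of all pairs were called. At 1.5 times, 1 pair was higher and 0 were lower, where 1.67% and 1.93% of all pairs were called. The members were thus called more often than all genes at the smaller fold and in the higher direction, and no more often at the larger fold. Since well counted genes reach a call more easily, the same was computed for pairs with at least 50 CPM in both libraries, a choice made after the data were seen: 9 of 46 member pairs (19.6%) and 4.70% of all such pairs were at least 1.2 times higher in HS.

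Microglia-like cells showed all 10 genes above 1, with a median log2 ratio of 0.21 over the 10 while 4.90% of all genes of the class were at least 1.2 times higher in HS. Of genes of the class with at least 50 CPM in both libraries, 55.2% were above 1. The Hspa5 level of 2498 CPM in HS and 1972 CPM in PF in microglia-like cells gives a ratio of 1.27 (95% interval 1.25 to 1.29). Hsp90b1 had 606 CPM in HS and 475 CPM in PF, a ratio of 1.28 (1.23 to 1.32). Creld2, with 36.3 CPM in HS and 28.4 CPM in PF, had the same ratio with a wider interval, 1.28 (1.10 to 1.48). The smallest ratio in the class was that of Dnajb9, at 1.06 (1.02 to 1.12). Within each of the 2 largest clusters of microglia-like cells, 1 led by Cd86 and the chemokine genes Ccl3 and Ccl4 and 1 by Ptprc, Cd86 and Ptpro, the Hspa5 ratio was 1.27 (1.24 to 1.30) and 1.24 (1.21 to 1.27).

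Oligodendrocyte-like cells, whose myelin membrane passes through the ER, had 4 genes at least 1.2 times higher in HS, where 4.75% of all genes of the class were called higher and 6.05% lower. Pdia6 stood at 164 CPM in HS and 126 CPM in PF, a ratio of 1.30 (1.2 to 1.41). Hspa5 had 395 CPM in HS and 314 CPM in PF, 1.26 (1.19 to 1.33). Calr, with 261 CPM in HS and 212 CPM in PF, had a ratio of 1.23 (1.15 to 1.32), and Hsp90b1, with 438 and 358 CPM, one of 1.22 (1.16 to 1.29). All 4 are genes with the ERSE letters shown above. Creld2, which also has the letters, stood at 1.23 (0.979 to 1.54) on 178 UMIs in HS and 144 in PF and was not called. Dnajb9 was the exception in this class, at 0.970 (0.884 to 1.06).

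Pericyte-like cells, which wrap capillaries, held the 3 highest member ratios among the 7 classes, with 4 members at least 1.2 times higher in HS. Of all genes of the class, 4.90% were called higher at 1.2 times and 2.09% at 1.5 times. Creld2 had 43.2 CPM in HS and 27.7 CPM in PF, a ratio of 1.56 (1.07 to 2.28) that rests on 69 and 51 UMIs. Manf had 235 CPM in HS and 166 CPM in PF, 1.41 (1.21 to 1.65). Hspa5 had 979 CPM in HS and 741 CPM in PF, 1.32 (1.23 to 1.42), and Pdia6, with 178 and 140 CPM, a ratio of 1.27 (1.07 to 1.51). Hsp90b1 did not go with them, at 0.969 (0.871 to 1.08).

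Ependymal-like cells had 9 of the 10 genes above 1, with Hspa5 at 1.17 (1.14 to 1.21), Hsp90b1 at 1.15, Manf at 1.14 and Pdia4 at 1.13, and astrocyte-like cells had 6 of the 10. In ependymal-like cells, where 5.87% of all genes were called higher and 5.65% lower, Sdf2l1 had 37.7 CPM in HS and 30.2 CPM in PF, a ratio of 1.25 (1.09 to 1.43), and Dnajb9 had 66.8 CPM in HS and 81.8 CPM in PF, 0.817 (0.748 to 0.893), the 1 pair called lower. Dnajb9 was also below 1 in astrocyte-like cells, 84.3 CPM in HS and 100 CPM in PF, a ratio of 0.843 (0.740 to 0.961). Hspa5 in astrocyte-like cells had 267 CPM in HS and 234 CPM in PF, 1.14 (1.05 to 1.23).

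Endothelial-like and vascular smooth muscle-like cells had no member called at 1.2 times. Of all genes, 5.84% were called higher and 6.57% lower in endothelial-like cells, and 5.78% and 4.47% in vascular smooth muscle-like cells. In endothelial-like cells the ratios of the 10 genes lay between 0.914 (Hyou1) and 1.11 (Hspa5, 941 CPM in HS and 845 CPM in PF, 1.09 to 1.13). In vascular smooth muscle-like cells Hspa5 had 600 CPM in HS and 607 CPM in PF, a ratio of 0.988 (0.931 to 1.05). Whether these classes differ from the others in their ratios was not tested.

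Seen by gene, Hspa5, Hsp90b1, Pdia6, Calr and Creld2 had ratios above 1 in 6 of the 7 classes, and Manf and Sdf2l1 in all 7, Sdf2l1 in vascular smooth muscle-like cells on fewer than 30 UMIs. Dnajb9 had a median ratio of 1.01 over the classes, the lowest of the 10, and Hspa5 the highest, 1.17. The 5 genes with the ERSE letters had a median log2 ratio of 0.19 over 35 pairs, with 10 called at 1.2 times higher and 0 lower. Pdia4, Dnajb9 and Sdf2l1, whose promoters lacked the letters, had a median of 0.09 over 20 pairs, with 1 higher and 1 lower. Manf and Hyou1, with no promoter matched, had a median of 0.15 over 14 pairs, with 1 higher. The 28 other genes of the files with an ERSE had a median of 0.07 over 65 pairs, with 8 higher and 4 lower. Of all pairs, 5.34% and 6.28% were called. Most pairs of these 28 genes with the 7 classes had too few UMIs to be measured. Among the 28 are the ER genes Canx, Dnajc3, Derl3 and Syvn1, and Hnrnpa3. This grouping by promoter was examined after the ratios were known, and the difference was not tested. Well counted genes reach a call more easily, and the part of UMI counts in these numbers was not tested.

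**Figure D3:**
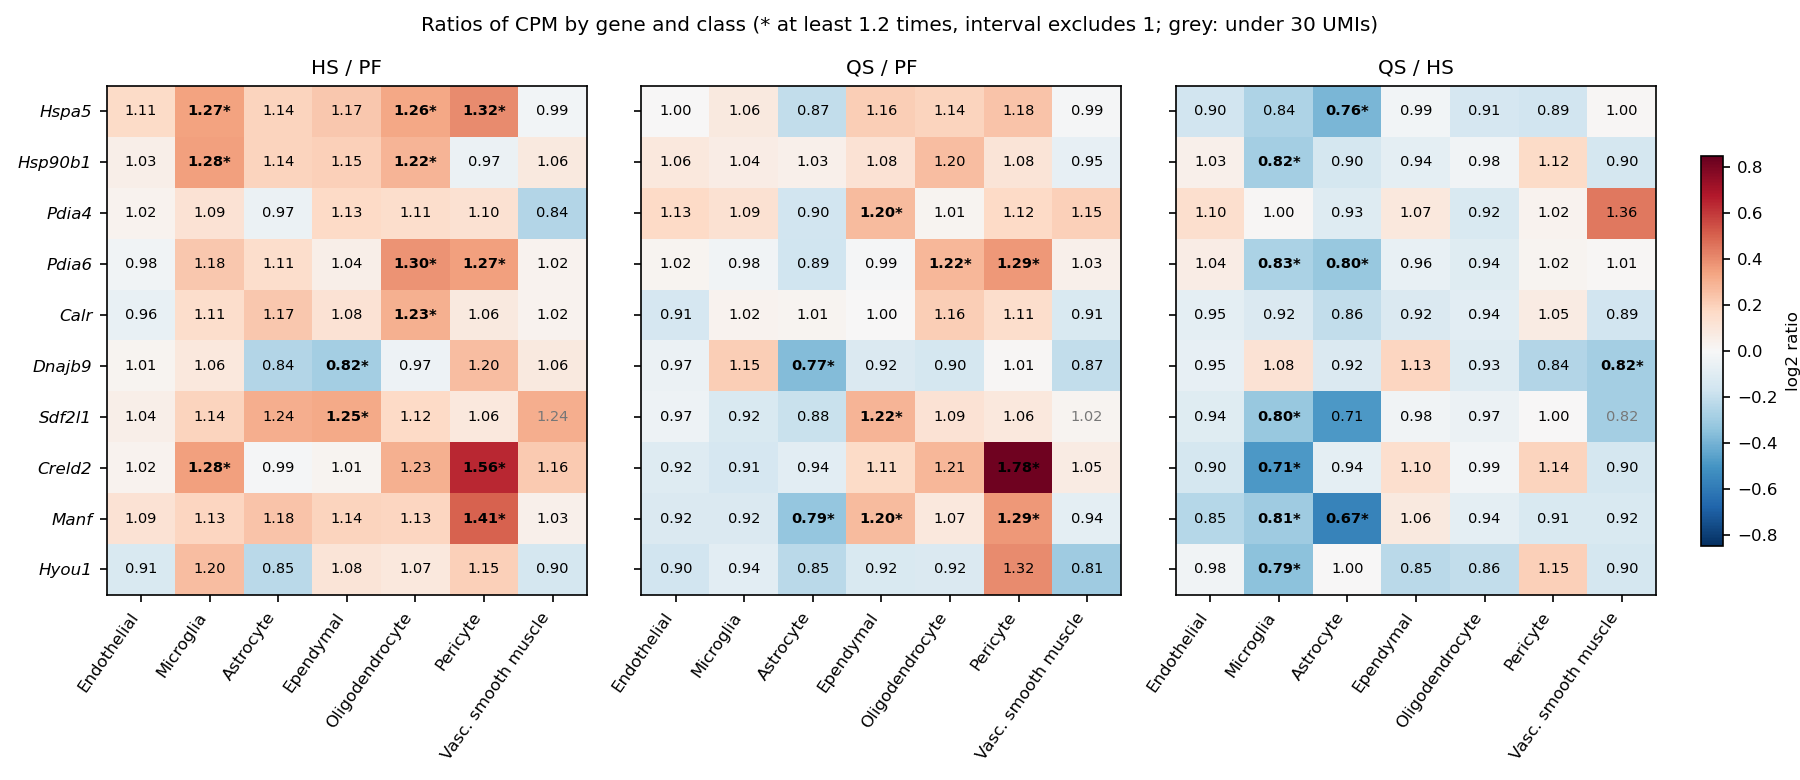
Ratios of CPM for 10 genes (rows) in 7 classes (columns), for HS over PF, QS over PF and QS over HS; colour is the log2 ratio, bold numbers with a star are at least 1.2 times apart with an interval that leaves out 1, and grey numbers rest on fewer than 30 UMIs. Stars in the first panel mark 12 higher pairs and 1 lower pair, and those in the last panel 10 lower pairs.

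Fibroblast-like cells had 330 cells in HS, 71 in QS and 311 in PF, too few in QS for the 200 set for ratios, and were compared after the data were seen. Their Hspa5 level was 1719 CPM in HS and 1070 CPM in PF, a ratio of 1.61 (1.53 to 1.69), and all 10 members were above 1. The class consists of 2 clusters, which are given apart here. Cluster 18, led by Dcn, Cemip, Gsn and Mfap4, held 223 HS cells and 206 PF cells. In it all 10 members were at least 1.2 times higher in HS with intervals above 1, where 7.50% of the 8172 genes of that cluster with at least 30 UMIs were called higher and 7.73% lower.

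In cluster 18 Hspa5 had 1865 CPM in HS and 1047 CPM in PF, a ratio of 1.78 (1.68 to 1.89). Pdia4 had 87.8 CPM in HS and 43.2 CPM in PF, 2.03 (1.52 to 2.75), and Sdf2l1 60.5 and 30.7 CPM, 1.97 (1.39 to 2.82). Dnajb9 was the smallest at 1.22 (1.07 to 1.39). Cluster 23, led by Spp1, Dcn, Slc6a13 and Lama1, held 107 HS cells and 105 PF cells and had none of the members called in either direction, where 6.91% of its genes were called higher and 6.28% lower. There 8 of the 10 ratios were below 1, down to 0.681 (0.414 to 1.11) for Pdia4. Hspa5 had 1218 CPM in HS and 1133 CPM in PF, a ratio of 1.07 (0.963 to 1.2), and the difference between the clusters was not tested. Median UMI counts per cell were 8296 in HS and 7232.5 in PF in cluster 18, and 5272 and 5138 in cluster 23; their part in the result was not tested.

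**Figure D4:**
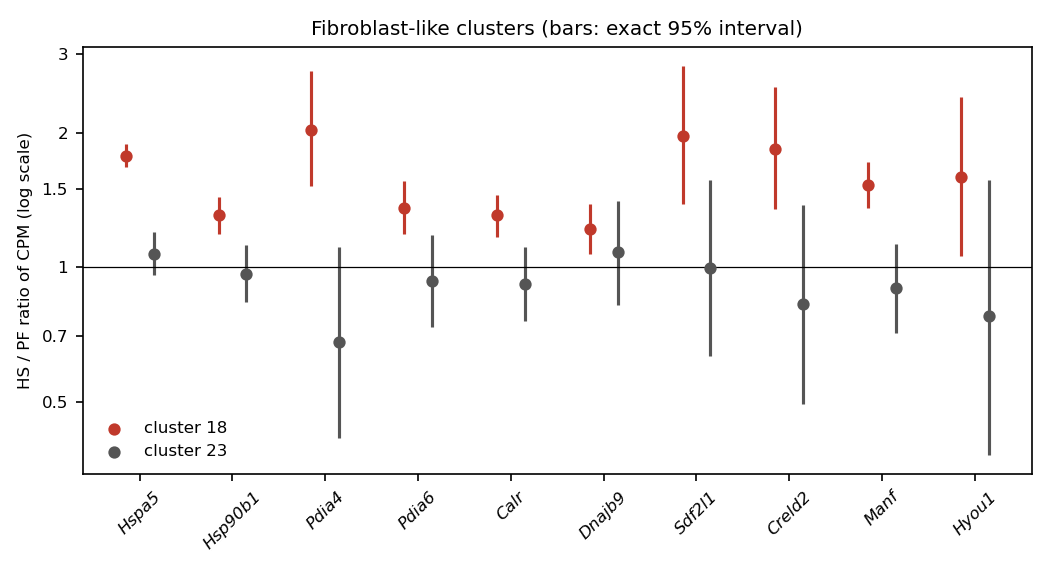
HS over PF ratio of CPM (log axis) for the 10 genes in the 2 clusters of fibroblast-like cells, with exact 95% intervals for counting error; red is cluster 18 and grey cluster 23. In cluster 18 the 10 ratios lie between 1.22 and 2.03, and in cluster 23 every interval includes 1.

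Of the other smaller classes, border-associated macrophage-like cells had the same Hspa5 direction, 3155 CPM in HS and 2177 CPM in PF, a ratio of 1.45 (1.4 to 1.5), with 6 of 10 members above 1. Tanycyte-like cells, glia of the third ventricle wall, had 3 of 10 members above 1, and Hspa5 at 1.11 (1.01 to 1.22). T or NK cell-like cells had 4 of 10 above 1. Monocyte or dendritic cell-like cells had 10 of 10 above 1, with Hspa5 at 1.01 (0.928 to 1.09) and Creld2 at 2.39 (1.45 to 4.04), but their median UMI count was 10731.5 in HS and 5885 in PF, and 21.2% of their genes were at least 1.2 times higher in HS. At 50 CPM or more in both libraries, 60.3% of their genes were above 1. How far depth bears on that class was not tested.

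The recovery library asks whether levels after exposure still stood apart from the control. Between QS and PF the members had a median log2 ratio of 0.02, with 37 of 69 pairs above 1. All genes had a median of -0.02, with 46.6% of pairs above 1. At least 1.2 times higher in QS were 7 pairs (10.1%, where 5.43% of all pairs were called), and 2 were lower (2.90%, where 8.91% were called). At 1.5 times, 1 pair was higher (1.59% of all pairs) and 0 were lower (3.41% of all pairs). HS and QS are both set against the same PF library here, so the 2 comparisons are not independent.

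Pericyte-like cells held the highest called ratios among the 7 classes, where 4.82% of all their genes were at least 1.2 times higher in QS. Creld2 had 49.4 CPM in QS and 27.7 CPM in PF, a ratio of 1.78 (1.24 to 2.58) on 79 and 51 UMIs, and Pdia6, with 181 and 140 CPM, one of 1.29 (1.09 to 1.54). Manf had 214 CPM in QS and 166 CPM in PF, 1.29 (1.10 to 1.51). All 10 members were above 1 in this class, with a median log2 ratio of 0.20. At 50 CPM or more in both libraries, 50.4% of its genes were above 1. In ependymal-like cells, where 5.37% of all genes were called higher, Sdf2l1 (36.9 CPM in QS, 30.2 in PF) had a ratio of 1.22 (1.06 to 1.41), and Pdia4 (202 and 168 CPM) and Manf (251 and 209 CPM) each of 1.2. In oligodendrocyte-like cells (7.04% of all genes called higher) Pdia6 stood at 154 CPM in QS and 126 CPM in PF, a ratio of 1.22 (1.13 to 1.31).

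Astrocyte-like cells went the other way. Manf had 70.0 CPM in QS and 88.3 CPM in PF, a ratio of 0.793 (0.687 to 0.916), and Dnajb9 77.3 CPM in QS and 100 CPM in PF, 0.773 (0.675 to 0.886). These were the 2 pairs called lower, and 2 of the 10 genes were above 1 in this class. With at least 50 CPM in both libraries, 49.8% of its genes were above 1. Of all genes in astrocyte-like cells, 13.6% were at least 1.2 times lower in QS than in PF and 3.97% higher. In microglia-like cells Hspa5 had 2090 CPM in QS and 1972 CPM in PF, 1.06 (1.04 to 1.08), and no member was past 1.2 times. Of all genes of microglia-like cells, 5.33% were called higher and 7.80% lower.

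Between QS and HS most members were lower in QS, with a median log2 ratio of -0.10 and 19 of 69 pairs above 1. Among all pairs, 48.4% were above 1. At least 1.2 times lower in QS were 10 pairs (14.5%, where 9.93% of all pairs were called), and 0 were higher (7.73% of all pairs). At 1.5 times 0 pairs were called in either direction, where 2.35% of all pairs were higher and 3.62% lower. With the limit of 50 CPM, 8 of 48 member pairs (16.7%) and 9.30% of all such pairs were lower.

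Microglia-like cells held 6 of the 10 lower pairs, where 7.88% of all their genes were called lower. Creld2 had 25.8 CPM in QS and 36.3 CPM in HS, a ratio of 0.710 (0.614 to 0.823), and Hyou1 25 and 31.8 CPM, 0.787 (0.676 to 0.917). Sdf2l1, Manf, Hsp90b1 and Pdia6 lay between 0.80 and 0.831. Hspa5, with 2090 CPM in QS and 2498 CPM in HS, stood just short of the fold at 0.837 (0.823 to 0.851). Dnajb9 and Pdia4 did not take part, with ratios of 1.08 (1.04 to 1.13) and 1.0 (0.899 to 1.12).

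Astrocyte-like cells held 3 more, where 9.59% of all their genes were called lower. Manf had 70.0 CPM in QS and 104 CPM in HS, 0.673 (0.593 to 0.764), the lowest ratio of a member in the 7 classes. Hspa5 had 203 CPM in QS and 267 CPM in HS, 0.761 (0.706 to 0.821), and Pdia6 103 and 129 CPM, 0.80 (0.719 to 0.891). The 10th pair was Dnajb9 in vascular smooth muscle-like cells, with 106 CPM in QS and 130 CPM in HS, 0.818 (0.699 to 0.956). In that class 10.9% of all genes were called lower. In ependymal-like cells, by contrast, Hspa5 had 714 CPM in QS and 723 CPM in HS, 0.988 (0.961 to 1.02).

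Makeup of the classes differed between libraries, so ratios were also taken within the 14 clusters with at least 100 cells in every library. In the HS over PF ratio, Hspa5, Hsp90b1 and Manf were each above 1 in 13 of the 14 clusters, Pdia6, Calr and Pdia4 in 10, Creld2 and Sdf2l1 in 9, Dnajb9 in 8 and Hyou1 in 6. Sdf2l1, above 1 in the endothelial-like class as a whole, was below 1 in 3 of its 4 clusters measured, with intervals that include 1. In QS over HS, Hspa5 was above 1 in 1 of 14, at 1.13 in 1 of the 2 largest clusters of ependymal-like cells, Manf in 2 of 14 and Pdia4 in 10 of 14. The lowest Hspa5 value there, 0.623 (0.531 to 0.730), was in 1 of the 2 large astrocyte-like clusters, which held 36.8% of that class in QS, 30% in HS and 47.1% in PF.

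The summed level of the 10 genes was 4640 CPM in HS, 3975 in QS and 3817 in PF in microglia-like cells, 2446, 2363 and 2040 in pericyte-like cells, and 1705, 1604 and 1423 in oligodendrocyte-like cells. In vascular smooth muscle-like cells it was 1378, 1308 and 1358. HS was highest in each of the 7 classes, and QS lay below PF in endothelial-like cells (2542, 2400 and 2428), astrocyte-like cells (1104, 917 and 1003) and vascular smooth muscle-like cells.

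Most members varied together between libraries, and Dnajb9, Pdia4 and Hyou1 less so. With each class centred on its mean over the 3 libraries (21 points in 7 classes, which share libraries and scaling), r of log2(CPM + 1) with Hspa5 was 0.90 for Manf, 0.85 for Pdia6 and 0.75 for Sdf2l1, against 0.46 for Pdia4, 0.38 for Hyou1 and 0.16 for Dnajb9. Over all 45 pairs of members the median r was 0.48, and the median with the other members was 0.06 for Dnajb9, 0.18 for Pdia4 and 0.38 for Hyou1. Some points rest on few UMIs: Hyou1 had 41, 47 and 41 in pericyte-like cells (HS, QS, PF). In vascular smooth muscle-like cells Pdia4 had 58, 58 and 82, and Sdf2l1, whose r with Hspa5 was 0.75, had 25, 15 and 24. The part of counting error in r was not tested. Among 1073 genes other than the members, with at least 50 CPM throughout, the 5 most like Hspa5 by this measure were Hnrnpa3, an RNA-binding protein (r = 0.87), and St13, Dnaja1, Zc3h15 and Hsp90aa1 (0.80 to 0.81). St13, Dnaja1 and Hsp90aa1 belong to the cytosolic HSP70 and HSP90 system. Over the 12 class means, the non-members most like it included Rab1a, a GTPase of ER-to-Golgi transport (r = 0.93), and Ndel1, Senp2 and Ftl1 (0.91 to 0.92). By that measure r of the other members with Hspa5 ran from 0.80 for Calr to -0.07 for Pdia4. Placed among the 1073 non-members by that r, they ranked from 43 (Calr) to 608 (Pdia4), with Hsp90b1 at 225.

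Other genes of the ER, described by 6 lists beside the members, had small median log2 ratios in HS over PF. The 20 other chaperones and oxidoreductases, among them Canx, P4hb and Dnajc3, had a median log2 ratio of HS over PF of 0.04, with 6 of 130 pairs at least 1.2 times higher and 2 lower. For 19 genes of ER-associated degradation, which returns misfolded proteins to the proteasome, the median was 0.03, with 5 of 127 pairs higher and 0 lower. Glycan processing (15 genes, median 0.01), translocation (23 genes, -0.01) and retrieval and export (20 genes, -0.02) had 3 pairs each past 1.2 times higher, of 103, 161 and 137. Each of these 5 lists had a smaller share of pairs called higher than the 5.34% of all pairs.

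Among the sensors and transcription factors of the unfolded protein response (18 genes), the median was 0.01, with 10 of 111 pairs at least 1.2 times higher in HS and 4 lower. Over all pairs of a gene and a class, 5.34% were called higher and 6.28% lower. Xbp1, the factor spliced by IRE1, accounted for 5 of the 10. Its ratio of HS over PF was 1.27 (1.23 to 1.32) in endothelial-like, 1.21 (1.13 to 1.29) in microglia-like, 1.33 (1.10 to 1.61) in astrocyte-like, 1.32 (1.2 to 1.46) in ependymal-like and 1.34 (1.18 to 1.52) in oligodendrocyte-like cells. It was 1.06 (0.896 to 1.26) in pericyte-like and 1.08 (0.901 to 1.29) in vascular smooth muscle-like cells, and was not called there. In QS over HS the Xbp1 ratio was 0.599 (0.574 to 0.625) in endothelial-like and 0.673 (0.563 to 0.804) in astrocyte-like cells. Endothelial-like cells therefore differed in Xbp1 RNA while their members stayed within 1.2 times. The 3′ counts do not tell spliced from unspliced Xbp1 RNA. Herpud1, a membrane protein of ER-associated degradation, had a QS over HS ratio of 0.657 (0.575 to 0.751) in astrocyte-like and 0.672 (0.601 to 0.752) in oligodendrocyte-like cells. Sec61b, a subunit of the translocation channel, was at 0.665 (0.558 to 0.792) in astrocyte-like cells in QS over HS, and Rpn1, of the glycan transferase, at 1.59 (1.27 to 1.99) in vascular smooth muscle-like cells in HS over PF.

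Cytosolic heat shock genes, which answer to HSF1 rather than to the ER sensors, were set beside the members as a second folding system. Their 16 genes had a median log2 ratio of 0.20 in HS over PF, with 39 of 112 pairs at least 1.2 times higher and 5 lower. Of all pairs of a gene and a class, 5.34% were called higher and 6.28% lower. In QS over HS their median was -0.20, with 3 higher and 44 lower, where 7.73% and 9.93% of all pairs were called. Hsph1, an HSP110 exchange factor, was at 1.55 (1.47 to 1.64) in microglia-like cells, and Chordc1, a co-chaperone of HSP90, at 1.65 (1.32 to 2.07) in pericyte-like cells, both HS over PF. Hspa1b went the other way in ependymal-like cells, at 0.750 (0.725 to 0.775) in HS over PF and 1.69 (1.64 to 1.74) in QS over HS. The class with the highest median of these genes, microglia-like cells (0.35), had a member median of 0.21, and the class with the lowest, ependymal-like cells (0.10), one of 0.15.

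Immediate early genes, which respond to dissociation as well as to stimulation, differed between the libraries and are given for that reason. Their 16 genes had a median log2 ratio of HS over PF of -0.08, from -0.42 in oligodendrocyte-like to 0.01 in microglia-like cells. Of their 112 pairs, 0 were at least 1.2 times higher and 27 lower, where 5.34% and 6.28% of all pairs were called. In QS over PF their class medians ran from -0.69 in oligodendrocyte-like to 0.49 in ependymal-like cells. The median mitochondrial share of UMIs was 1.14% in HS, 1.07% in QS and 1.44% in PF in microglia-like cells, and 5.69%, 5.15% and 6.46% in oligodendrocyte-like cells. The part of these measures in the chaperone ratios was not tested.

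**Figure D5:**
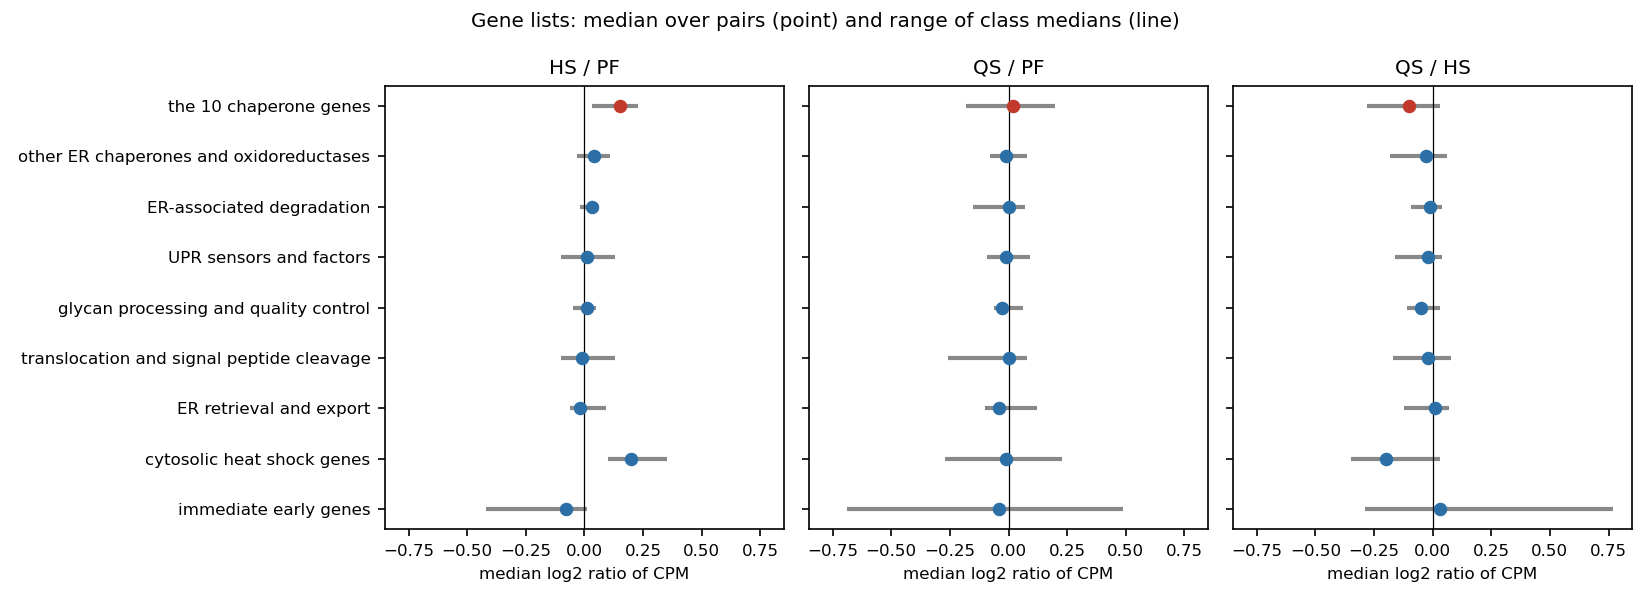
Median log2 ratio of CPM over pairs of a gene and a class (points) and the range of the class medians (lines) for the 10 chaperone genes, 6 lists of other ER genes, cytosolic heat shock genes and immediate early genes, in 3 comparisons. The members (red) stand at 0.15, 0.02 and -0.10 for HS over PF, QS over PF and QS over HS, and the cytosolic heat shock genes at 0.20, -0.01 and -0.20.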

How the data were processed

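The 3 libraries of dissociated hypothalamus, 1 per group, were captured with the 10x 3′ kit. The authors deposited UMI counts for each gene and barcode, made with Cell Ranger against mm10. The submitters' processing notes give its version as 5.0.0 and also name Seurat 3.1.2, and the version per the file headers is 7.0.1. The counting of intronic reads, the mice pooled per library and the recovery time are not stated in the sources used.

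Barcodes with fewer than 500 UMIs or 200 genes, or over 20% mitochondrial UMIs, were dropped (208 in HS, 211 in QS, 194 in PF). Doublets called by Scrublet (Scanpy 1.11.5, 0.8% expected for every 1000 barcodes) were dropped too, 5.46%, 6.32% and 6.20% of the rest. After scaling to 10000 UMIs per cell and log transformation, cells were clustered without integration (Leiden, leidenalg 0.10.2, resolution 1, seed 0; 15 neighbours, 30 principal components, 2000 variable genes that leave out the 10 members and all listed pathway genes). To name a cluster, 3 or more markers of a class had to be detected in 25% or more of its cells, with a CPM 4 times that of the median cluster, and the runner-up class could score at most 0.6 of the best.

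UMIs were summed per library and class. Ratios of CPM carry exact conditional binomial 95% intervals and levels exact Poisson ones, which cover counting error only. A pair was called at 1.5 or 1.2 times with an interval leaving out 1 and at least 30 UMIs in the library with more. With 1 library per group no test across samples could be made. The calling code was tested on simulated data. The members, gene lists, markers and thresholds were chosen with earlier results of these data known. Ratios in smaller classes and within clusters, the limit of 50 CPM and the promoter grouping were added after the data were seen. Named genes of other lists come from at most 3 per list and comparison, those called at 1.5 times in most classes and then those with the highest median absolute log2 ratio. In likeness to Hspa5, the 5 highest values of r were taken, of which 1 over the class means is not reported here. Ddit3, whose symbol has more than 1 ID in the files, was left out, and Hm13 was not matched.

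The alternatives were a total without mitochondrial, ribosomal protein and haemoglobin genes, size factors, a minimum of 1000 UMIs per cell, doublets kept, free RNA subtracted at 5%, equal weight per cell, a marker gate on each cell, resolution 0.5, the top cell left out, and at least 100 UMIs. Python 3.11.15 was used with matplotlib 3.10.9, pandas 2.3.3, SciPy 1.17.1, NumPy 2.4.6, AnnData 0.12.19, scikit-image 0.26.0 and scikit-learn 1.9.0.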

Additional observations from a re-analysis of the deposited data

Results flagged for a closer look

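Manf was called in both directions between QS and PF, depending on the class: its ratio of CPM was 0.793 in astrocyte-like cells, 1.2 in ependymal-like cells and 1.29 in pericyte-like cells. With 1 library per group, the difference between the classes was not tested.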

How the results depend on the processing

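No paired analysis was possible because each group has 1 library, and no library could be left out. Under the 10 alternatives named above, no called ratio among the 210 of a gene, a class and a comparison changed direction. The limit of 100 UMIs drops pairs and could not turn one. Size factors shifted log2 ratios by 0.022 at most, too little to turn a call. The ranges that follow also take in the limit of 50 CPM, chosen after the data were seen. The median log2 ratio over pairs stayed between 0.13 and 0.15 (HS over PF), 0.00 and 0.04 (QS over PF) and -0.14 and -0.06 (QS over HS). The 12 pairs at least 1.2 times higher in HS than in PF became 9 to 14, and the 10 lower in QS than in HS became 8 to 12.

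Small counts moved most. For HS over PF, the 1 pair at 1.5 times higher became 0 with doublets kept, the marker gate, resolution 0.5, at least 100 UMIs or the 50 CPM limit. The 1 pair at 1.2 times lower became 2 with the total without mitochondrial, ribosomal protein and haemoglobin genes, doublets kept, free RNA subtracted or cells weighted equally, and 0 with the marker gate. For QS over PF, the 7 pairs at 1.2 times higher became 4 with that total, the 2 at 1.2 times lower became 1 with doublets kept or the marker gate, and the 1 at 1.5 times higher became 0 with at least 100 UMIs or the 50 CPM limit. For QS over HS, 0 at 1.5 times lower became 1 with free RNA subtracted or the marker gate, 0 at 1.5 times higher became 1 with the marker gate, and 0 at 1.2 times higher became 1 with the marker gate or resolution 0.5. The cause was not tested. Creld2 in pericyte-like cells stayed between 1.43 and 1.65 (HS over PF) and between 1.68 and 1.86 (QS over PF). With free RNA subtracted, the range of Sdf2l1 between classes was 26.6 times in place of 18.6. No cell held more than 13.3% of a member's UMIs in any class and library with ratios. With the total without mitochondrial, ribosomal protein and haemoglobin genes, the lowest class for Hsp90b1 was astrocyte-like in place of vascular smooth muscle-like cells. The same 5 genes held the ERSE letters when the 250 bases before the start alone were searched.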
